A study of Mus musculus with 49 samples.

Results

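The genes described are the mouse cadherins and protocadherins on the array, chosen as the probe sets with 1 gene symbol that starts with Cdh followed by a digit or with Pcdh. This rule found 59 probe sets among the 22626 tested, for 49 genes among the 11807 named. A probe set is a group of short probes for 1 transcript, and for the 8 genes with more than 1 the brightest over all 49 arrays was used. The 49 genes were 5 type I cadherins, 8 type II cadherins, 4 other cadherins, 8 protocadherins outside the clusters, 2 clustered alpha protocadherins and 22 clustered beta protocadherins. Laser capture took the CA1 pyramidal layer, the CA3 pyramidal layer and the granule cells of the dentate gyrus (DG) from hippocampal sections of 17 female mice aged 6.1 months. DN mice were without transgenes. In tTA mice the Camk2a promoter, which is active in excitatory forebrain neurons, drove the tetracycline-controlled transactivator. The rTg4510 mice had this driver and, in addition, a responder for human tau with the P301L mutation. All 3 genotypes were littermates from a cross of a tau line with a tTA line kept on another inbred strain, so they share a mixed background. Arrays of DN, tTA and rTg4510 mice, in this order, numbered 6, 5 and 5 for CA1, 5, 5 and 6 for CA3, and 6, 5 and 6 for DG, with 1 array for each mouse and subfield.

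Cadherins are calcium-dependent adhesion molecules that bind partners of the same kind on the opposing cell. Type I and type II cadherins anchor to actin through beta- and alpha-catenin, and neurons use their combinations to sort into layers and to match pre- and postsynaptic membranes. The clustered protocadherins are chosen by single neurons from tandem promoters with the help of CTCF and cohesin and give each neuron a surface identity, and several protocadherins outside the clusters act on actin through the WAVE complex.

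Of the 49 genes, 20 had a mean above 5.039, the median over all probe sets on the log2 scale of the deposited values. These were Cdh2 among the 5 type I cadherins, Cdh8, Cdh9, Cdh10, Cdh11 and Cdh22 among the 8 type II cadherins, Pcdh8, Pcdh10 and Pcdh20 among the 8 protocadherins outside the clusters, Pcdha1 of the alpha cluster and 10 of 22 beta protocadherins. None of the 4 other cadherins, Cdh13, Cdh16, Cdh17 and Cdh23, was above it. A gene is called dim in a comparison where a group mean lies below 5.039, since differences of such genes are understated. Probe sets differ in brightness for reasons of their own, so levels are compared between groups and not between genes. Pcdh9, Pcdh17, Pcdh19 and the gamma cluster were not analysed here. The Pcdha1 probe set can bind several transcripts by its design, and beta genes are close copies of each other, so a value of 1 clustered gene may hold signal of another.

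In DN mice Cdh9 and Pcdh8 were low in CA1, and Cdh10 and Pcdh10 were high in CA1 against DG. RefSeq promoters (build GRCm38.p6, from 250 bases before to 50 bases after the start) were matched by symbol for 14 of the 49 genes, these 4 among them. They are shown as 2 genes low in CA1 and 2 genes high there against DG among those matched, a choice made after their values were seen. Capitals mark CCAAT and TATAAA on either strand (ATTGG and TTTATA on the other), which do not overlap each other here.
Cdh9, chr15:16728665-16728964, plus strand: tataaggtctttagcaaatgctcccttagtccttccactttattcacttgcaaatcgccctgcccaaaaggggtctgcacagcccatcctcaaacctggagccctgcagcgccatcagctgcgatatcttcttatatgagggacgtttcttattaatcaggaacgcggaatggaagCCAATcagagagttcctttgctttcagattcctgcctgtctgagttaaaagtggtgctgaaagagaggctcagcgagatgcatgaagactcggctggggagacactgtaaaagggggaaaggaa
Pcdh8, chr14:79771263-79771562, minus strand: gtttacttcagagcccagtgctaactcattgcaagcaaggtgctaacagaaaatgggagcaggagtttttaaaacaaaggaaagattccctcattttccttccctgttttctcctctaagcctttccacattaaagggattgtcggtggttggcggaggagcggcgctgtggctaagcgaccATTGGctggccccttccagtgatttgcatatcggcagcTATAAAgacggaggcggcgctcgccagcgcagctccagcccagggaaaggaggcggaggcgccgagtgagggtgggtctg
Cdh10, chr15:18820079-18820378, plus strand: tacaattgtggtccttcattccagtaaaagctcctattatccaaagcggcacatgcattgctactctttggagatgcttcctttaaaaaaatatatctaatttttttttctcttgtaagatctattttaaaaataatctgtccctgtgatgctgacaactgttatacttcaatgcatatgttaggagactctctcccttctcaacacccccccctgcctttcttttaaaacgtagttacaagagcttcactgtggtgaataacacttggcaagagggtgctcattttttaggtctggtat
Pcdh10, chr3:45378148-45378447, plus strand: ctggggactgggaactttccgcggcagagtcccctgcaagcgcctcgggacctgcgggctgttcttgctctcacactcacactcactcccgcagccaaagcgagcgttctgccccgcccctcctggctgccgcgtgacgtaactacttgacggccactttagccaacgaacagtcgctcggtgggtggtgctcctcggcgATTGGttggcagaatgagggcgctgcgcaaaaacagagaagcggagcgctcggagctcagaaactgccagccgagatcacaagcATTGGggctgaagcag
The Cdh9 window held 1 CCAAT match and the Pcdh8 window 1 CCAAT and 1 TATAAA match. The Pcdh10 window held 2 CCAAT matches and the Cdh10 window 0 of either. Over all 32851 RefSeq promoters of the same length, 37.4% held CCAAT and 13.6% held TATAAA. Windows picked after their values were seen cannot test a link of these letters to the layers. CpG pairs numbered 8 in Cdh9, 14 in Pcdh8, 2 in Cdh10 and 24 in Pcdh10, against a median of 7 over all promoters. CANNTG, which reads the same pattern on both strands, was found 3 times in Cdh9, 0 times in Pcdh8, 5 times in Cdh10 and 0 times in Pcdh10, and 72.3% of all promoters held it.

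The captured layers carried the markers of their labels, and some arrays also carried those of other cells. The mean of 3 measured CA1 markers (Wfs1, Pou3f1 and Lefty1) was 9.29 to 9.57 in DN CA1 and 5.14 to 6.34 in DN CA3 and DG. In the CA3 and DG arrays of tTA mouse4592 it was 7.00 and 6.70, against 5.10 to 5.93 in the other 8 tTA arrays of these layers, and results are given with and without this mouse where it changes them. The DG marker mean of rTg4510 mouse4549 in CA3 was 6.50, against 4.62 to 5.29 in the other 5. The mean of 7 microglia markers was 5.41 to 5.95 in DN, 6.06 to 6.40 in tTA and 7.38 to 8.58 in rTg4510 CA1. DN mouse numbers (mouse4797 to mouse4886) lay apart from those of tTA (mouse4570 to mouse4637) and rTg4510 mice (mouse4535 to mouse4666), so anything that goes with these numbers cannot be told apart from the DN genotype. The difference between the 3-prime and 5-prime control probe sets of Actb, a sign of RNA quality, averaged −0.37 in DN and −0.70 in tTA CA1.

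The first question was how the genes differ between the cell layers of DN mice. Cdh9, a type II cadherin of synapses between dentate granule cells and CA3 neurons, was low in CA1 and high in CA3 and DG. Its values in CA3 were 8.46, 8.26, 8.43, 8.41 and 7.92. In CA1 they ran from 4.71 through a median of 5.03 to 5.71, and in DG from 7.83 through 8.06 to 8.17. No CA1 array reached the lowest CA3 or DG array. The mean of 5.14 ± 0.38 (SD, n = 6) in CA1 was 3.16 ± 0.19 (SE) log2 units, or 8.93-fold, below CA3 (adjusted p = 2.58e-17) and 2.90 ± 0.18, or 7.47-fold, below DG (adjusted p = 4.24e-17). CA3 and DG of DN mice did not differ in Cdh9 beyond this test. In a bulk capture such as this, fewer expressing cells and less RNA per cell cannot be told apart.

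Pcdh8, the activity-induced protocadherin also known as arcadlin, rose from CA1 over CA3 to DG. CA1 arrays ran from 5.79 through 5.91 to 6.14, and DG arrays from 7.90 through 8.10 to 8.54. The 5 CA3 values, 7.20, 7.33, 7.44, 7.07 and 7.18, lay between them with no overlap on either side. Each step passed the test, with CA3 1.32 ± 0.15 above CA1 (adjusted p = 1.25e-09) and DG 0.88 ± 0.15 above CA3 (adjusted p = 6.12e-06), and DG was 4.59-fold above CA1. Cdh10, a type II cadherin, ran the other way. Its CA1 arrays spanned 7.56 to 7.80 with a median of 7.69, its DG arrays 5.32 to 6.14 with a median of 5.87, and its CA3 values were 6.73, 6.72, 6.68, 6.70 and 7.10. Here too the 3 layers did not overlap, and CA1 was 1.87 ± 0.17, or 3.64-fold, above DG (adjusted p = 2.05e-12).

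**Figure D1:**
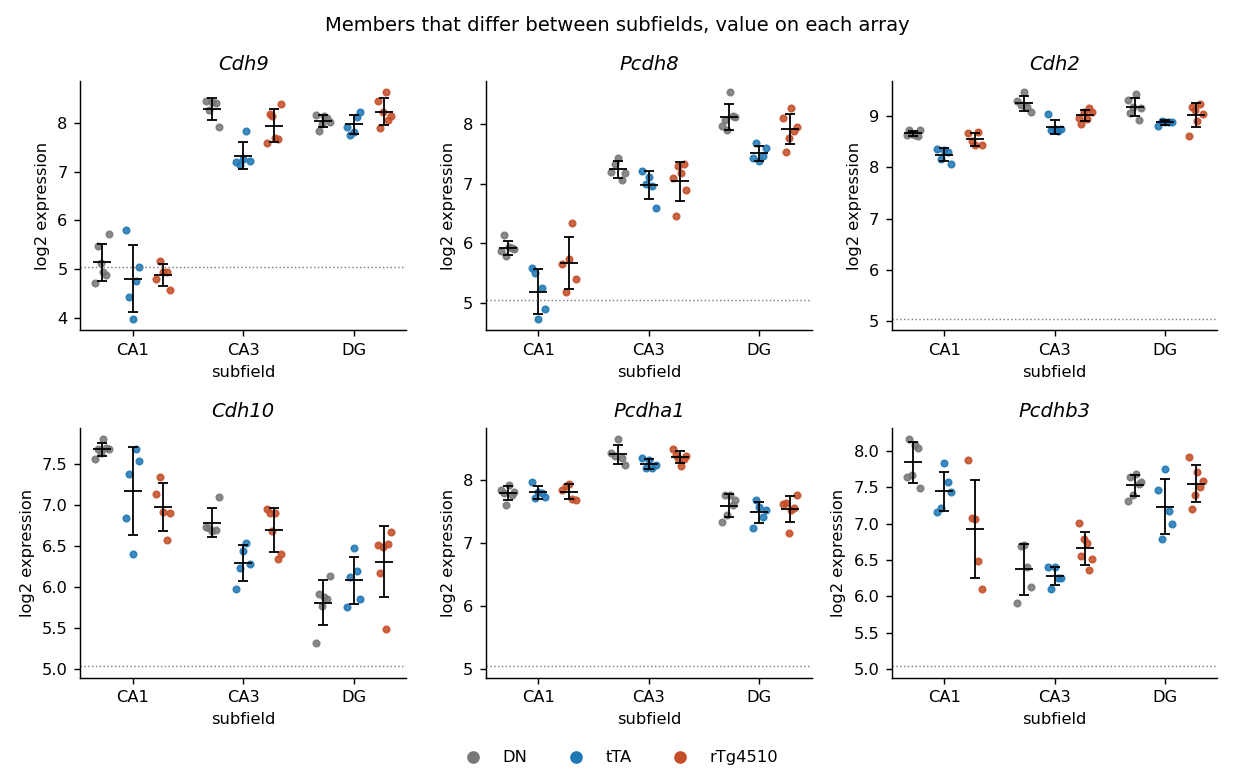
Values on each array (points, log2 expression) of 6 genes in CA1, CA3 and DG for DN (grey), tTA (blue) and rTg4510 (orange) mice, with mean and SD in black and the median probe set (5.039) dotted. Cdh9 and Pcdh8 were lowest in CA1 and Cdh10 highest there in all 3 genotypes, while Pcdha1 peaked and Pcdhb3 dipped in CA3.

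Of the 49 members, 10 were called between CA1 and CA3 in DN mice, where 12.9% of all probe sets were called, 10 between CA1 and DG (17.5% of all) and 14 between CA3 and DG (21.7% of all). The shares of members were 20.4%, 20.4% and 28.6%, and their distance from these backgrounds was not tested. With the mouse as a fixed block in a fit of DN mice alone, 20 members were called for CA1 against DG, where that fit called 24.2% of all probe sets. N-cadherin, Cdh2, the main neuronal type I cadherin, was at 8.66 ± 0.06 (SD, n = 6) in CA1, 9.25 ± 0.14 in CA3 and 9.18 ± 0.18 in DG, so that CA1 was lower by 0.59 and 0.52 (adjusted p = 5.08e-07 and 1.61e-06), and a second Cdh2 probe set was lower by 0.50 and 0.61. CA3 and DG overlapped in Cdh2 and their difference of 0.07 was not called. Cdh11, a type II cadherin first known from bone, was lower in DG by 0.67 against CA1 and 0.73 against CA3. Cdh22 was lower in CA3 than in DG by 0.86 ± 0.19, with both groups apart (4.28 to 4.89 and 5.24 to 5.59) and CA3 dim. Cdh8, another type II cadherin, had means of 7.19, 7.12 and 7.17 in the 3 layers and was called in none of the 22 comparisons.

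Outside the clusters, Pcdh20 was highest in DG, with 9.31 ± 0.08 (SD, n = 6) against 8.75 ± 0.12 in CA3 and 8.62 ± 0.10 in CA1. No DG array overlapped the others, and DG was higher by 0.56 and 0.70 (adjusted p = 1.2e-05 and 6.62e-08). Pcdh10, which binds the WAVE complex through Nckap1, was lowest in DG, where it was 1.12 ± 0.17 below CA1 and 0.69 ± 0.18 below CA3. A dimmer Pcdh10 probe set was lower in DG by 0.46 against CA1, which was not called (adjusted p = 0.0595), and by 0.74 against CA3 (adjusted p = 0.0018). The remaining 5 protocadherins of this kind, Pcdh1, Pcdh7, Pcdh12, Pcdh15 and Pcdh18, had group means below 5.039 and none was called between layers. Pcdh7 in particular gave 2.58, 2.63 and 2.74, and a brighter probe set that names it along with a second gene was left out by the rule.

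Several clustered genes differed between CA3 and the other layers. Pcdha1, read by its shared probe set, was 8.44, 8.38, 8.65, 8.35 and 8.25 in CA3 of DN mice. CA1 arrays spanned 7.61 to 7.93 and DG arrays 7.33 to 7.77, all below CA3, which was higher by 0.62 ± 0.08 and 0.82 ± 0.08 (adjusted p = 1.66e-07 and 9.13e-11). Of the 22 beta genes, 5 (22.7%) were called higher in CA1 than in CA3 and 0 lower, where 12.9% of all probe sets were called and 6.26% were called higher. Likewise 5 of 22 (22.7%) were called higher in DG than in CA3 and 0 lower, where 21.7% of all probe sets were called and 10.4% were called in this direction. All 10 of the beta genes above the median were below 0 for CA3 against DG, as were 47.4% of all probe sets above it, and the median over the 22 was −0.14 against 0.01 over all probe sets. For Pcdhb3, the CA3 values of 5.91, 6.70, 6.71, 6.41 and 6.13 lay below all CA1 (7.49 to 8.16) and DG arrays (7.31 to 7.68), with CA1 2.76-fold and DG 2.21-fold higher (adjusted p = 1.15e-08 and 1.64e-06). Pcdhb16 was highest in DG, at 6.04 ± 0.23 (SD, n = 6) against 5.29 ± 0.35 in CA1 and a dim 4.72 ± 0.43 in CA3. Pcdhb19 was higher in CA1 than in CA3 by 0.97 ± 0.27 (adjusted p = 0.0103). The Pcdhb19 call was lost without DN mouse4797 or mouse4866 (adjusted p = 0.0684 and 0.0878), and the call of Pcdhb16 between CA1 and CA3 without DN mouse4806, mouse4825 or mouse4883.

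**Figure D2:**
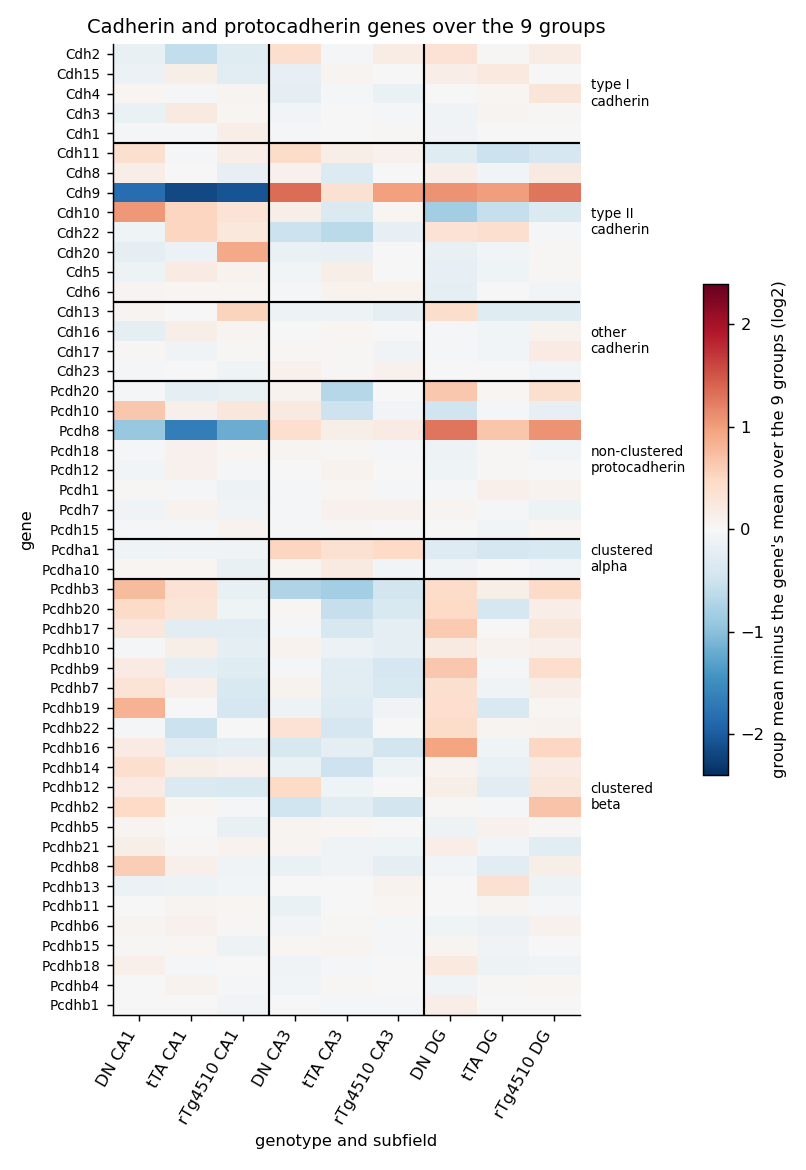
Mean of each of the 49 genes in each of the 9 groups, as the difference from that gene's own mean over the groups (log2, red higher, blue lower), with genes ordered by family and, within it, by mean brightness. Cdh9 and Pcdh8 were low in CA1 and Cdh10 high there, and many beta genes, such as Pcdhb3 and Pcdhb16, were lower in CA3.

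Part of the layer differences recurred in the transgenic mice, which supply other animals though the same kind of capture. In tTA mice 10, 8 and 7 members were called for CA1 against CA3, CA1 against DG and CA3 against DG, where 12.7%, 15.9% and 17.9% of all probe sets were called. In rTg4510 mice the counts were 6, 14 and 11, with backgrounds of 15.0%, 12.5% and 19.1%, and with the mouse as a fixed block in rTg4510 mice alone the last 2 were 7 and 7, where that fit called 7.89% and 15.2% of all probe sets. Pcdh8, Cdh2, Pcdha1 and Cdh9 were called with the same sign in all 3 genotypes for CA1 against CA3, 4 of the 10 DN calls. Pcdh8, Cdh2, Pcdh20, Cdh10, Cdh9 and Cdh11 were so for CA1 against DG, 6 of the 10 DN calls. For CA3 against DG these were Pcdh8, Pcdhb3, Pcdha1, Pcdh20 and Cdh11, 5 of the 14 DN calls. No member was called with opposite signs in different genotypes. Cdh9 was lower in CA1 than in CA3 by 2.53 ± 0.20 in tTA and by 3.07 ± 0.19 in rTg4510 mice, with CA1 dim in both. Some of these calls leaned on single animals. In tTA mice the 0.29 by which Pcdh20 was lower in CA1 than in DG was not called in 9 of 23 alternatives, among them without tTA mouse4592 (0.24, adjusted p = 0.177), mouse4580 or mouse4626, without 4 of the DN mice in turn and with no block, and the Pcdh8 difference between CA3 and DG was not called without mouse4637 (−0.42, adjusted p = 0.08). In rTg4510 mice the Cdh10 difference between CA1 and DG was not called without mouse4549 (0.53, adjusted p = 0.0663), and with the mouse as a fixed block neither Cdh10 nor Cdh11 was called there (adjusted p = 0.0915 and 0.0935). Of the 22 beta genes, 0 were called between CA1 and CA3 in rTg4510, 5 in DN and 2 in tTA mice, and a difference between these counts was not tested.

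Genes that work with cadherins were read from a list of 55 partners, of which 42 were measured. In DN mice 3 were higher and 6 lower in CA1 than in CA3 (21.4% called, against 12.9% of all probe sets), 6 and 6 for CA1 against DG (28.6%, against 17.5%), and 12 and 8 for CA3 against DG (47.6%, against 21.7%). Nectin3, an adhesion molecule of the puncta adherentia at mossy fiber synapses, was at 10.96 in CA3 against 8.57 in CA1 and 8.23 in DG, and it also stands among the CA3 markers. Arvcf, a p120-family catenin, was at 7.03 in CA3 against 5.81 and 5.93, and the alpha-catenin Ctnna2 at 9.87 against 9.29 and 9.29. Cdhr1, a cadherin-related receptor, was low in CA1 (5.03) and higher in CA3 (6.97) and DG (6.95), the order seen for Cdh9. Beta-catenin, Ctnnb1, was higher in DG by 0.28 against CA1 and 0.26 against CA3. Ctcf, which binds the clustered promoters, was lower in CA3 (7.88) than in CA1 (8.51) and DG (8.58). Of the 22 beta genes, 16 had a lower mean in CA3 than in CA1 and 17 a lower mean than in DG. Of the 10 beta genes above the median, 2 had a higher mean in CA3 than in CA1, as had 49.6% of all probe sets above it. All 10 had a lower mean in CA3 than in DG, as had 47.4% of those probe sets. A link between Ctcf and the beta genes was not tested.

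The second question was what mutant tau changes, for which rTg4510 were set against tTA mice. In CA1, 2 of 49 members were called, Cdh20 and Cdh2, both higher in rTg4510, against 10.6% of all probe sets. Cdh20, a type II cadherin, was 5.57, 5.05, 4.71, 6.57 and 4.90 in rTg4510 and 4.56, 4.17, 4.53, 3.74 and 4.51 in tTA mice, and 4.13 to 4.25 in DN mice. Every rTg4510 array was above every tTA array, though the rTg4510 arrays spread widely and the tTA mean was dim. The difference was 1.06 ± 0.27 (adjusted p = 0.0173), and without rTg4510 mouse4653 it was 0.75 and still called. Cdh2 was 8.67, 8.51, 8.44, 8.68 and 8.43 in rTg4510 and 8.36, 8.17, 8.34, 8.30 and 8.06 in tTA mice. These did not overlap and differed by 0.30 ± 0.08 (adjusted p = 0.0228), which was not called without rTg4510 mouse4535 or mouse4653 or tTA mouse4580 or mouse4637 (adjusted p = 0.0538 to 0.0591) or with the Actb ratio as a covariate (adjusted p = 0.0909). Fitted without the DN arrays, neither gene was called (Cdh20 adjusted p = 0.0921, Cdh2 adjusted p = 0.103). A second Cdh2 probe set was higher by 0.47 (adjusted p = 0.0354). Against DN CA1, Cdh2 was at −0.11 in rTg4510 (adjusted p = 0.337) and −0.41 in tTA mice (adjusted p = 0.00228). The means were 8.66 in DN, 8.24 in tTA and 8.55 in rTg4510 CA1, so tTA was the lowest group.

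Markers of other cells moved with these CA1 results. Against tTA, rTg4510 CA1 had 7 of 7 microglia, 4 of 5 astrocyte, 3 of 5 oligodendrocyte, 4 of 6 interneuron, 4 of 5 meningeal and 2 of 7 vascular markers called higher, and 3 of 3 CA1 neuron markers called lower. The oligodendrocyte marker mean was 7.89 to 8.75 in rTg4510 and 6.96 to 8.17 in tTA CA1, and the astrocyte mean 9.52 to 10.23 and 8.14 to 8.90. The part of these cells in the Cdh20 and Cdh2 differences was not tested. A dim probe set of Pcdh18 that was not its brightest was higher by 0.88 (adjusted p = 0.0153), while the brightest one differed by −0.07.

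In CA3, 1 of 49 members was called between rTg4510 and tTA mice, against 1.13% of all probe sets. This was Pcdh20, with 8.00, 7.90, 7.93, 8.31 and 7.76 in tTA mice. The 6 rTg4510 arrays ran from 8.35 through a median of 8.68 to 8.98 and the DN arrays from 8.55 to 8.84, so the tTA arrays lay below both and the other two groups overlapped. The rTg4510 mean was higher than that of tTA by 0.69 ± 0.11 (adjusted p = 0.0086), a second probe set was higher by 0.74 (adjusted p = 0.00615), and rTg4510 differed from DN by −0.08 (adjusted p = 0.796). Fitted without the DN arrays the 0.69 had an adjusted p of 0.0547. In the same arrays 3 of 7 microglia and 1 of 5 astrocyte markers were called higher and 0 of 3 CA1, 0 of 4 CA3 and 0 of 4 DG markers were called. In DG, 0 of 49 members were called by limma, where 0.782% of all probe sets were called, and 12 had an unadjusted p below 0.05, as had 15.1% of all probe sets. Of the 20 members above the median, 18 were above 0 there, as were 53.3% of all probe sets above it, with a median over the 49 of 0.09 against −0.01 over all probe sets.

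**Figure D3:**
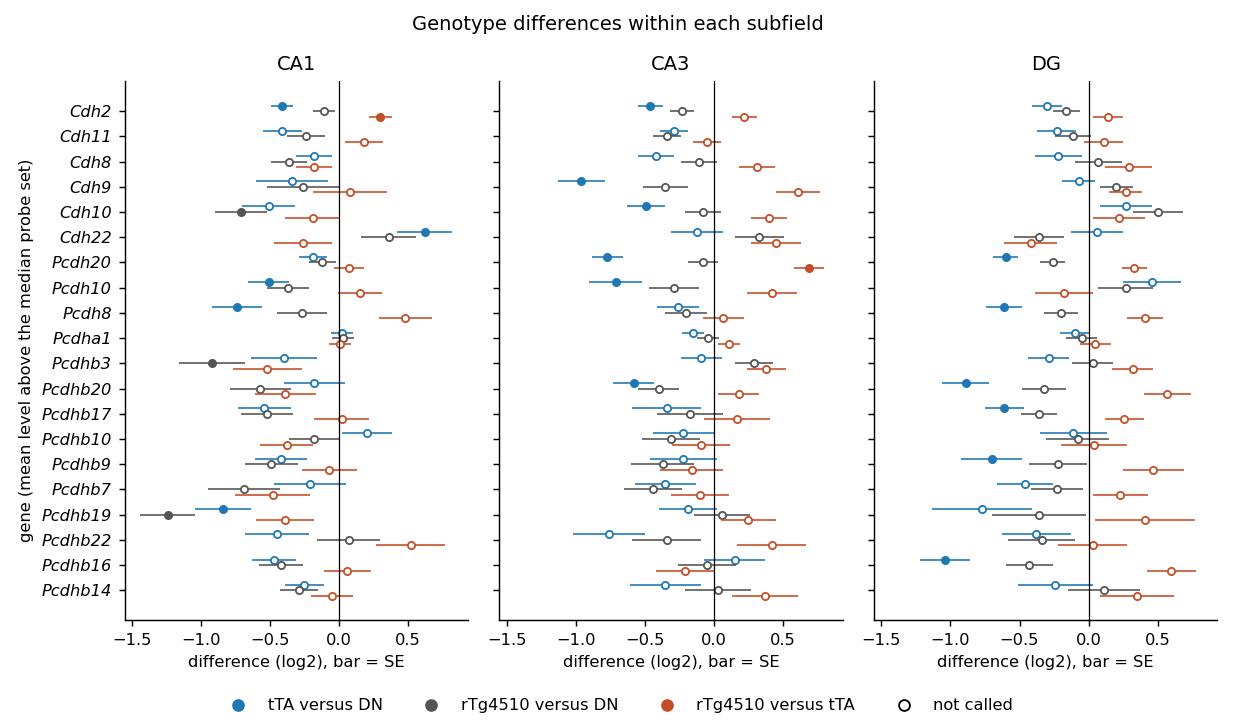
Differences between genotypes within each subfield (log2, bars SE) for the 20 genes above the median probe set, with filled points called at an adjusted p below 0.05. Most blue points (tTA against DN) lie left of 0 in all 3 layers, and for Pcdh20 in CA3 the orange point (rTg4510 against tTA, 0.69) and the blue one (−0.77), which share the tTA arrays, lie on opposite sides of 0.

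The third question was what tTA alone changes, for which tTA were set against DN mice. In DG 8 of 49 members were called, all lower in tTA, against 16.7% of all probe sets called and 9.44% called lower. In CA3 6 of 49 were called, again all lower, against 9.09% called and 4.97% called lower. In CA1 8 were called, 3 higher, all dim, and 5 lower, against 16.2% called and 8.85% called lower. The shares of members called, 16.3% in DG, 12.2% in CA3 and 16.3% in CA1, lay near the backgrounds, and the direction of the members was not tested. Without tTA mouse4592 the counts were 5 in CA1, 4 in CA3 and 6 in DG. Among the 20 members above the median, 17 in CA1, 19 in CA3 and 17 in DG had a difference below 0, as had 58.5%, 59.5% and 57.7% of all probe sets above it. The comparisons of tTA and rTg4510 with DN share the DN arrays, and those of tTA with DN and rTg4510 with tTA share the tTA arrays.

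Cdh9 fell in CA3 from the DN values above to 7.19, 7.14, 7.27, 7.83 and 7.23 in tTA mice, the highest of which was below the lowest DN array. The difference was −0.96 ± 0.17 (adjusted p = 0.00287) in CA3, and the CA3 call held without each mouse in turn. In DG it was −0.07 and not called, and the test of the difference between DG and CA3 was not called either (0.89 ± 0.28, adjusted p = 0.111). Pcdh20 fell in CA3 by 0.77 ± 0.11 (adjusted p = 0.000893) and in DG, where tTA mice had 8.71, 8.84, 8.70, 8.80 and 8.54 against 9.19 to 9.40 in DN mice, by 0.60 ± 0.09 (adjusted p = 0.000414). Neither layer overlapped. Pcdh8 fell by 0.74 ± 0.18 in CA1 and by 0.61 ± 0.13 in DG, where its tTA arrays of 7.43, 7.68, 7.38, 7.47 and 7.61 were all below the lowest DN array of 7.90. Cdh2 fell by 0.41 ± 0.08 in CA1 and 0.46 ± 0.09 in CA3 without overlap, and its −0.30 in DG was not called (adjusted p = 0.0693). Its second probe set was at −0.57 in CA1 and −0.67 in DG (adjusted p = 0.00742 and 0.0139). In CA3 that probe set was at −0.47, which was not called (adjusted p = 0.108).

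Pcdh10 was lower in tTA mice by 0.51 ± 0.15 in CA1 and 0.71 ± 0.19 in CA3, with overlapping arrays in both, and was at +0.46 ± 0.21 in DG, which was not called. Its dimmer probe set was at +0.07, −0.28 and +0.29 and called in none of them. The Pcdh10 call was lost in 11 of 23 alternatives in CA1, 7 of which left out 1 mouse, and in 10 of 23 in CA3, also 7 of them without 1 mouse. Without tTA mouse4592 it was −0.36 (adjusted p = 0.0738) in CA1 and −0.60 (adjusted p = 0.078) in CA3, and with the mean of its probe sets −0.22 (adjusted p = 0.343) in CA1. Cdh10 was lower in CA3 by 0.49 ± 0.14 without overlap, a call that was lost without any of 8 mice (adjusted p = 0.0583 to 0.0907), among them DN mouse4886, whose 7.10 lay above the other DN arrays. T-cadherin, Cdh13, which lacks a cytoplasmic part, was lower in DG by 0.72 ± 0.17 in tTA and by 0.71 ± 0.16 in rTg4510 mice, with the transgenic means dim. In tTA mice 1 of its other 2 probe sets was also lower, by 0.76 (adjusted p = 0.00891), and the last was at 0.07 and not called. In rTg4510 mice these were at −0.39 and 0.18, and neither was called (adjusted p = 0.194 and 0.0762). The 3 calls upward in CA1, Cdh22, Cdh3 (P-cadherin) and Cdh16 (a kidney cadherin), were all dim and between 0.37 and 0.62. The Cdh3 call was lost in 8 of 22 alternatives and the Cdh22 call in 11 of 23, among them without tTA mouse4592 (adjusted p = 0.0873 and 0.0973).

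In the beta cluster, Pcdhb16, Pcdhb20, Pcdhb9, Pcdhb17 and Pcdhb18 were lower in DG of tTA than of DN mice. These were 5 of the 22 beta genes (22.7%), against 16.7% of all probe sets called and 9.44% called lower. All 10 beta genes above the median were below 0, as were 57.7% of all probe sets above it, and the median over the 22 was −0.24 against 0.03 over all probe sets. Pcdhb16, with a dim tTA mean, was 5.83, 5.03, 4.80, 4.82 and 4.52 in tTA mice and 5.73 to 6.33 in DN mice. Of its tTA arrays, mouse4570 alone reached the DN range, and the difference was −1.04 ± 0.18 (adjusted p = 0.000749). Pcdhb20 was 6.50, 5.83, 6.13, 6.32 and 6.59, all below the DN arrays (6.91 to 7.73), a fall by 0.89 ± 0.17 (adjusted p = 0.00198), and it was also lower in CA3, by 0.58 ± 0.15. The CA3 call of Pcdhb20 was lost without tTA mouse4580 or mouse4592 or DN mouse4866 or mouse4883. Pcdhb9 was not called without tTA mouse4592 (−0.46, adjusted p = 0.0825) among others, and Pcdhb18 was dim and lost its call without most single mice. In CA1 Pcdhb19 and the dim Pcdhb12 were lower, by 0.84 and 0.55. The Pcdhb12 call was lost in 6 of 22 alternatives, among them without tTA mouse4592 (−0.40, adjusted p = 0.0692). The median SD within groups was 0.38 over the 10 beta genes above the median and 0.267 over all probe sets above it, so single beta genes were measured less tightly than most.

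Other cells and RNA quality moved with the tTA comparison too. In DG 6 of 7 microglia and 4 of 5 astrocyte markers were higher in tTA than in DN mice, 2 of 4 DG markers were lower and 1 higher, and in CA3 6 of 7 microglia and 3 of 5 astrocyte markers were higher and 2 of 4 CA3 markers lower. The Actb 3-prime to 5-prime difference averaged −0.30 in DN and −0.61 in tTA DG. With it as a covariate 5 members were called in DG and 0 in CA1. Pcdh8, for one, was then at −0.52 (adjusted p = 0.0858) in DG and −0.55 (adjusted p = 0.229) in CA1, and Cdh2 at −0.39 (adjusted p = 0.0517) in CA1. The part of other cells in these differences was not tested. The share of all probe sets called with the covariate is not given. The counts of 5 and 0 can therefore not be read as particular to the members.

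**Figure D4:**
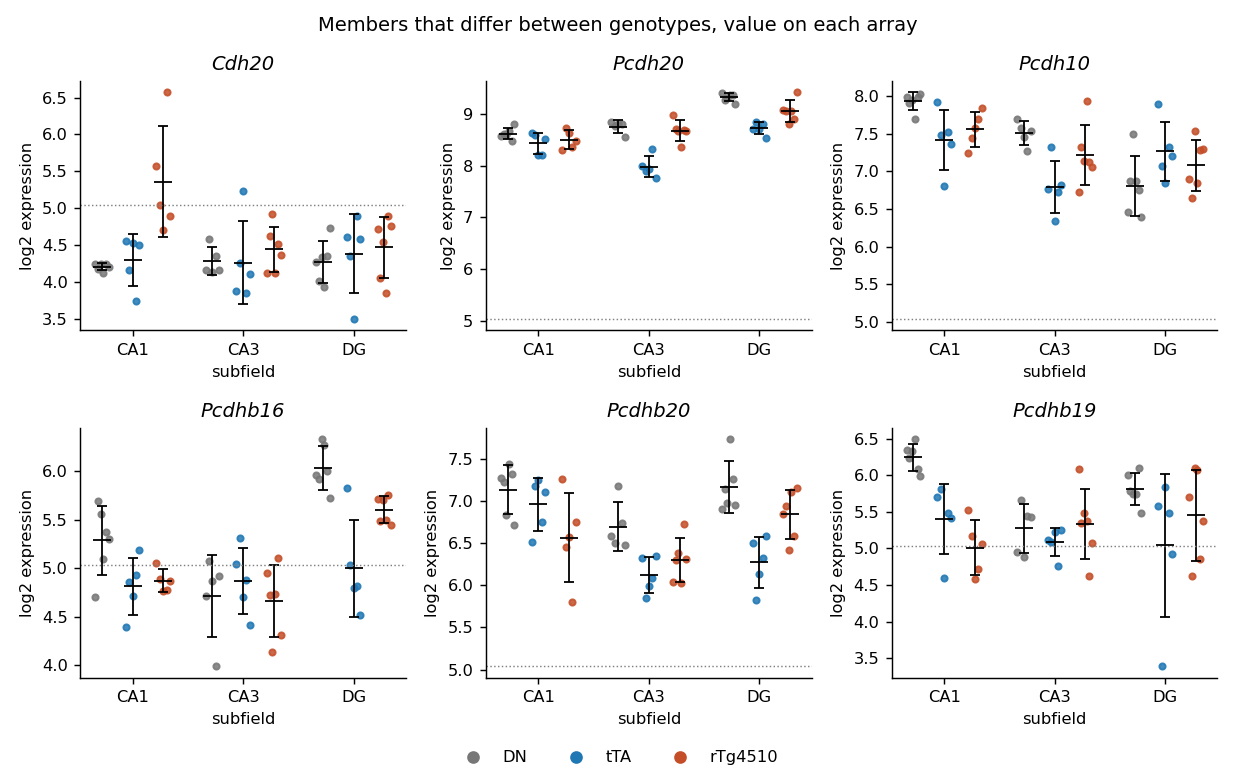
Values on each array (points, log2 expression) of 6 genes in CA1, CA3 and DG for DN (grey), tTA (blue) and rTg4510 (orange) mice, with mean and SD in black and the median probe set (5.039) dotted. Cdh20 stood out in rTg4510 CA1 (4.71 to 6.57), Pcdh20 was lowest in tTA CA3 (7.76 to 8.31), and Pcdhb16 and Pcdhb20 were lower in tTA than in DN mice in DG.

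Set against DN, rTg4510 mice had 8 members called in CA1, 3 higher and 5 lower, against 23.4% of all probe sets, 0 in CA3 (5 at an unadjusted p below 0.05 in limma, as were 16.6% of all), against 3.12%, and 2 in DG, against 8.86%. The 5 lower ones in CA1 were Cdh10 and 4 beta genes, Pcdhb3, Pcdhb8, Pcdhb12 and Pcdhb19. These 4 were 18.2% of the 22 beta genes, below the 23.4% of all probe sets called. Of the 22, 19 were below 0, with a median of −0.27 against 0.02 over all probe sets. Of the 10 beta genes above the median, 9 were below 0, as were 60.4% of all probe sets above it. The direction of the beta genes was not tested. Pcdhb19, dim in rTg4510 CA1, had the widest gap, with 5.52, 5.17, 4.58, 4.72 and 5.06 in rTg4510 against 5.99 to 6.49 in DN CA1, a fall by 1.24 ± 0.20 (adjusted p = 0.000283). Its tTA arrays, 5.70, 5.81, 4.60, 5.48 and 5.41, also lay below all DN arrays. Pcdhb3 was 7.88, 7.08, 7.07, 6.49 and 6.10 in rTg4510 mice, a wide spread that overlapped DN (7.49 to 8.16), and was lower by 0.92 ± 0.24 (adjusted p = 0.0111). Cdh10 was lower by 0.71 ± 0.19 (adjusted p = 0.0131) with all 5 rTg4510 arrays (6.57 to 7.34) below DN. The higher ones were Cdh20, by 1.15 ± 0.25, and the dim Cdh1 (E-cadherin) and Cdh16, by 0.21 and 0.29, 2 calls that were lost without most single mice. Pcdhb8 and Pcdhb12 were dim and not called without rTg4510 mouse4535 (adjusted p = 0.0611 and 0.056), nor was Pcdhb8 without rTg4510 mouse4600 (adjusted p = 0.058). In DN CA1, Pcdhb8 was 5.09 in mouse4797 and 3.75 to 3.99 in the others. Over the alternatives its difference ran from −0.75 to −0.47. In DG the dim Pcdhb2 was higher by 0.65 ± 0.17, a call lost without any of 5 mice (adjusted p = 0.0511 to 0.0603). Cdh13 was called lower there in its brightest probe set only. The same rTg4510 CA1 arrays had 7 of 7 microglia and 5 of 5 oligodendrocyte markers higher and 3 of 3 CA1 markers lower than DN, and their part in these counts was not tested.

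Whether a genotype difference itself varied between layers was tested in a model of all 9 groups. For rTg4510 against tTA, 2 members were called for CA1 against CA3 (3.88% of all probe sets) and 2 for CA1 against DG (5.45%). The tau difference of Pcdh20 was smaller in CA1 than in CA3 by 0.63 ± 0.14 (adjusted p = 0.00721). That of Pcdhb3 was lower in CA1 by 0.90 ± 0.26 against CA3 and 0.84 ± 0.26 against DG (adjusted p = 0.0368 and 0.0421), and that of Pcdhb20 lower by 0.96 ± 0.26 against DG (adjusted p = 0.0174). Neither Pcdhb3 nor Pcdhb20 was called between rTg4510 and tTA mice within any layer. Their rTg4510 means were below tTA in CA1, 6.92 against 7.45 for Pcdhb3 and 6.57 against 6.96 for Pcdhb20. They were above tTA in DG, 7.56 against 7.23 and 6.84 against 6.27, as was Pcdhb3 in CA3, 6.66 against 6.28. Without rTg4510 mouse4666 the Pcdhb3 terms were −0.72 and −0.62 and not called (adjusted p = 0.119 and 0.167), as also without several other mice, and the Pcdhb20 term was not called without tTA mouse4580 or mouse4592. For Cdh20 the terms of 0.86 and 0.95 were not called. The one against DG was called in 2 of 21 alternatives, at 1.23 without tTA mouse4592 (adjusted p = 0.0146) and at 1.12 without rTg4510 mouse4600 (adjusted p = 0.0489). For tTA against DN, 1 member was called for DG against CA1 (1.65% of all) and 2 for DG against CA3 (1.24%). Pcdh10 was higher in DG by 0.97 ± 0.25 and 1.17 ± 0.26 relative to its difference in CA1 and CA3 (adjusted p = 0.032 and 0.00838). Its dimmer probe set was at 0.22 and 0.57 in these terms and not called (adjusted p = 0.806 and 0.437). Pcdhb16 was lower by 1.19 ± 0.27 relative to CA3 (adjusted p = 0.00862), which was not called without DN mouse4883 (−1.01, adjusted p = 0.0554). The Pcdh10 term against CA1 was lost in 8 of 22 alternatives, among them without tTA mouse4592 (0.92, adjusted p = 0.0628), and both Pcdh10 terms were lost without DN mouse4797 (0.89 and 1.05, adjusted p = 0.108 and 0.0614).

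Among the 42 measured partners, 6 were higher and 2 lower in rTg4510 than in tTA CA1 (19.0% called, against 10.6% of all probe sets), and 0 were called in CA3 or DG (1.13% and 0.782% of all). Nectin3 was higher by 1.24 ± 0.26, Wasf2 by 0.99, plakoglobin (Jup) by 0.89, Nectin2 by 0.70, the alpha-catenin Ctnna1 by 0.69 and Ctnnb1 by 0.21. The neuronal WAVE subunit Wasf1 was lower by 0.35 and the kinase Ptk2b, which clustered protocadherins bind, by 0.63. Against DN, tTA mice had 2 partners higher and 6 lower in CA1, 3 and 5 in CA3, and 2 and 7 in DG, shares of 19.0%, 19.0% and 21.4% against 16.2%, 9.09% and 16.7% of all probe sets. Nckap1 and Cyfip2, both WAVE complex subunits, were lower in all 3 layers, Nckap1 by 0.55, 0.39 and 0.39 and Cyfip2 by 0.55, 0.74 and 0.79. Ctcf was lower in CA1 by 0.60 ± 0.17 in tTA and by 0.75 ± 0.17 in rTg4510 mice. Against DN, rTg4510 mice had 5 partners higher and 9 lower in CA1, 0 called in CA3, and 2 higher and 2 lower in DG, shares of 33.3%, 0% and 9.52% against 23.4%, 3.12% and 8.86%.

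Over all 22 comparisons 28 of the 49 members were called at least once, as were 59.5% of all probe sets, 15 of the 20 above the median and 13 of the 29 below it. The 21 that were never called by their brightest probe set included Cdh5 (VE-cadherin) and Pcdh12, both endothelial, Cdh23 and Pcdh15, which form the tip links of hair cells, Cdh8, Pcdha10 and 12 of the 22 beta genes. A dimmer Cdh5 probe set was higher in DG of tTA than of DN mice, by 0.29 (adjusted p = 0.0335). Cdh4 (R-cadherin) and Cdh17 were each called once, lower in CA3 than in DG of rTg4510 mice by 0.45 and 0.28 while dim, and Cdh6 and Cdh15 once each between layers of DN mice, also dim, and each of these 4 calls was lost without at least 2 of the mice in turn.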

How the data were processed

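The deposited table held log2 expression values from 49 Affymetrix HT-MG-430A arrays, made by the authors with RMA, the method in the submitters' processing notes. RMA puts the arrays it normalizes together on 1 distribution, which hides any shift of the whole transcriptome. The set of arrays that it ran on was not given in the sources used here. Anti-log values are named in the methods, but the values ran from 1.944 to 13.826, a log scale whose base was taken as 2 from its range. The values were used as deposited. Precision is limited by the number of arrays, which carry no read depth. Of 22716 probe sets, 90 controls were left out, 18003 had 1 gene symbol and 4336 were unnamed here. Members and gene lists were chosen with earlier results of these data known.

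Within each subfield, the 3 genotypes were fitted and compared with limma (version 3.58.1, run under R 4.3.3). Subfields, and differences between subfields, were compared in a model of all 9 groups with the mouse as a random block. Benjamini-Hochberg adjustment ran over all 22626 probe sets, and adjusted p-values below 0.05 were called. The number in a sample's title names the mouse and pairs its arrays. Deviations from the group means correlated by a median of 0.119 over the 47 pairs of arrays of the same mouse (27 above 0.1) and −0.00146 between mice, and the consensus within-mouse correlation was 0.117. Genes were named where a member was called between genotypes or in a test of a difference, where it was among the 6 widest called in each direction between DN subfields, or by role. The fits were tested on simulated data. Alternatives were quantile normalization again, dim probe sets left out, the mean of a gene's probe sets, the Actb ratio, fits of 2 genotypes, other blocks, the methods' least significant difference test, and leaving out each mouse.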

Additional observations from a re-analysis of the deposited data

Results flagged for a closer look

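A single array stood far from the rest of its group in 16 of 261 sets of values (29 named genes in 9 groups), and chance gives about 1 in 20 such sets. For Cdh2, it was tTA mouse4570 in CA3 at 9.03 (others 8.71 to 8.74) and tTA mouse4570 in DG at 8.80 (others 8.89 to 8.91). For Cdh9, it was tTA mouse4626 in CA3 at 7.83 (others 7.14 to 7.27). For Cdh10, it was DN mouse4886 in CA3 at 7.10 (others 6.68 to 6.73). These Cdh9 and Cdh2 arrays were the highest of their tTA groups in CA3 and still lay below all DN arrays. For Pcdh8, it was DN mouse4866 in DG at 8.54 (others 7.90 to 8.14). For Pcdhb9, it was tTA mouse4592 in DG at 4.54 (others 5.52 to 5.82). For Cdh22, it was rTg4510 mouse4666 in DG at 4.27 (others 5.01 to 5.40). The others concerned dim genes. For Cdh1, it was rTg4510 mouse4535 in DG at 3.53 (others 2.80 to 3.05). For Cdh16, it was DN mouse4866 in CA1 at 3.58 (others 3.76 to 3.85). For Cdh6, it was DN mouse4825 in CA3 at 3.84 (others 4.03 to 4.11). For Pcdh7, it was tTA mouse4570 in CA1 at 3.28 (others 2.59 to 2.65) and tTA mouse4637 in CA3 at 3.45 (others 2.45 to 2.68). For Pcdhb18, it was tTA mouse4637 in CA1 at 2.79 (others 2.90 to 2.93). For Pcdhb8, it was DN mouse4797 in CA1 at 5.09 (others 3.75 to 3.99), tTA mouse4592 in CA3 at 3.90 (others 3.22 to 3.30) and rTg4510 mouse4621 in DG at 4.39 (others 3.35 to 3.53).

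Genotype differences that themselves differed between layers were those of Pcdhb3, Pcdh20, Pcdhb20, Pcdh10 and Pcdhb16. In limma's model of 9 groups the rTg4510 against tTA difference was lower in CA1 than in CA3 by −0.90 for Pcdhb3 and −0.63 for Pcdh20, and lower in CA1 than in DG by −0.84 for Pcdhb3 and −0.96 for Pcdhb20. Within single layers neither Pcdhb3 nor Pcdhb20 was called for rTg4510 against tTA. The tTA against DN difference was higher in DG than in CA1 by 0.97 and than in CA3 by 1.17 for Pcdh10. The dimmer Pcdh10 probe set was at 0.22 and 0.57 there and not called. For Pcdhb16 the tTA against DN difference was lower in DG than in CA3 by −1.19. The arrays of tTA mouse4592, whose CA3 and DG captures carried CA1 markers, enter all of these terms.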

How the results depend on the processing

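Of 132 calls of single members over the 22 comparisons, 75 were kept under every alternative, 57 were lost under 1 or more and 0 reversed. Dim probe sets and groups of 5 or 6 arrays limit what can be called. The number of members called moved by over 1.5 times in these cases. Shares of all probe sets are not given beside these counts, so the moves cannot be read as particular to the members. Quantile normalization again gave 3 for tTA versus DN in CA3, and 1 each for the rTg4510 versus tTA difference of CA1 from CA3 and of CA1 from DG. Only probe sets above the median level gave 1 for rTg4510 versus tTA in CA1 and 0 for rTg4510 versus DN in DG. The mean of a gene's probe sets gave 1 for rTg4510 versus DN in DG and 0 for the tTA versus DN difference of DG from CA1. The Actb ratio as a covariate gave 1 for rTg4510 versus tTA in CA1, 0 for tTA versus DN in CA1, 1 for rTg4510 versus DN in DG, 5 for tTA versus DN in DG and 1 for the rTg4510 versus tTA difference of CA1 from CA3. A fit of only both genotypes compared, with fewer samples, gave 0 for rTg4510 versus tTA in CA1 and in CA3 and 4 for rTg4510 versus DN in DG. With no replicate block, the tests of a difference gave 1 for rTg4510 versus tTA for CA3 against CA1, 1 for DG against CA1, and 0 for tTA versus DN between DG and CA1. With the replicate block as a fixed term, fitted within 1 genotype at a time, CA1 against DG gave 20 in DN and 7 in rTg4510 mice, and CA3 against DG gave 7 in rTg4510 mice. The cause was not tested in the other cases.

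Leaving out each mouse in turn gave 1 to 3 members for rTg4510 versus tTA in CA1, 1 to 2 in CA3 and 0 to 2 in DG, then 6 to 12, 0 to 1 and 1 to 4 for rTg4510 versus DN, and 4 to 10, 3 to 10 and 6 to 8 for tTA versus DN. Between layers it gave 9 to 10, 9 to 11 and 11 to 15 in DN mice (CA1 against CA3, CA1 against DG and CA3 against DG), 9 to 11, 6 to 8 and 5 to 8 in tTA mice, and 6 to 7, 9 to 17 and 8 to 12 in rTg4510 mice. The tests of a difference gave 1 to 3 and 0 to 4 for rTg4510 versus tTA (CA1 from CA3 and from DG), and 0 to 3 and 1 to 2 for tTA versus DN (DG from CA1 and from CA3).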
